A study of Homo sapiens with 16 samples.

Results

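The expressed ZNF genes are C2H2 zinc finger genes found above a set level in each of 2 estrogen-responsive cell lines, and their response to 17β-estradiol (E2) is described here gene by gene. Members were selected on the measured level: a symbol made of ZNF and a number, with at most 1 letter after it, and a mean of at least 10 CPM, the read count scaled to the total of its library, over the 8 libraries of Ishikawa and over the 8 libraries of T-47D. Among the 26364 genes counted, 529 carried such a symbol, 304 passed the floor in Ishikawa, 289 in T-47D and 254 in both, and these 254 are the members. The mean used treated and untreated libraries alike, so the levels are a description and not a result. ZNF449 and ZNF232 lay just inside the floor, with means of 10.1 and 10.1 CPM in T-47D, and ZNF446 and ZNF414 just outside it, with 9.97 and 9.87 CPM. T-47D derives from a breast carcinoma and Ishikawa from an adenocarcinoma of the endometrium, both human. Both were held for 3 days, by the labels, in medium without phenol red and with hormone-stripped serum (the sources differ on the length), and then received 10 nM E2 for 2, 4 or 8 h. The 0 h libraries, also called before E2 here, had vehicle in its place. Each line and time point has 2 poly(A) RNA-seq libraries, 16 in all. Each tissue is represented by 1 line, and nothing in the labels says that replicates came from separate cultures, so p-values measure the spread between these libraries.

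C2H2 zinc finger proteins read DNA with short modules in which a pair of cysteines and a pair of histidines hold a zinc ion, and most have many such modules in a row. Many of the human ones carry a KRAB domain at the front, which binds TRIM28 and through it the histone methyltransferase SETDB1, and silences retrotransposons and genes. These genes multiplied by tandem duplication, above all on chromosome 19. Others have no KRAB domain and act in promoters, in RNA binding, on ribosomes or in spindle assembly. E2 acts through the estrogen receptor, a transcription factor that reads palindromic elements, often far from the gene.

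All 254 members matched a gene of GENCODE v44lift37 (GRCh37), and 95 of them (37.4%) lay on chromosome 19, against 5.93% of the other genes over the same floor. Codon patterns for a C2H2 finger were found in 243 of the 250 members with a coding sequence, with a median of 10 fingers and up to 36 in ZNF142. A codon pattern of the KRAB box was found in 120 members, of which 70 lay on chromosome 19, and was absent from 130. The 4 members with no coding sequence have symbols that end in P. ZNF146, a protein made almost wholly of fingers and abundant in Ishikawa, shows the module in its plainest form, and ZNF552, ZNF587B, ZNF814 and ZNF587 show how alike neighbours on chromosome 19 can be. The following runs are single fingers of the coding strand in GRCh37, with the cysteine and histidine codons in capitals.
ZNF146, finger 4, chr19:36727646-36727708, plus strand: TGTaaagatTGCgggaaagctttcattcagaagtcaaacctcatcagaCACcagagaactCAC
ZNF552, finger 1, chr19:58320293-58320355, minus strand: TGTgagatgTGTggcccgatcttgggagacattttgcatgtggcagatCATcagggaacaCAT
ZNF587B, finger 1, chr19:58352322-58352384, plus strand: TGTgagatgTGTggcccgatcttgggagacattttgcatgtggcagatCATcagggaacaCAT
ZNF814, finger 1, chr19:58386416-58386478, minus strand: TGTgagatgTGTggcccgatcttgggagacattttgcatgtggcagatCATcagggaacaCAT
ZNF587, finger 1, chr19:58370060-58370122, plus strand: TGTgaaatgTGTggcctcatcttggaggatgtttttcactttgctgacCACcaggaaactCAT
The fingers of ZNF552, ZNF587B and ZNF814 were identical over 63 bases, and that of ZNF587 differed from them at 16. Reads from such stretches cannot be told apart. Over whole transcripts 132 members shared no 50-base word with another gene of the tables, 24 shared at least 5% of their words and 3 at least 20%: ZNF286A (57.4%), ZNF417 (36%) and ZNF587 (24.5%). A further limit is that 68 members overlapped a gene on the opposite strand, 32 of them one of at least 10 CPM, and the strand setting of the counting is not given in the sources used here.

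Library totals ran from 41177912 to 64148903 counts, and the members together held 8669 to 9984 CPM of a library. In these bulk libraries a change in every cell and a change in some cells cannot be told apart. The E2 control GREB1, an estrogen receptor coactivator, rose at every time in both lines, with log2 fold changes at 8 h of 1.65 ± 0.12 in Ishikawa and 2.15 ± 0.05 in T-47D (SE, edgeR adjusted p = 1.73e-07 and 3.68e-15). ESR1, the receptor itself, was expressed in both lines. GATA3, a luminal breast factor, reached 995 to 1204 CPM in T-47D and at most 4 reads in a library of Ishikawa. SOX17 and PAX8, factors of the endometrial and Müllerian lineage, were found in Ishikawa, while T-47D had 0 reads of SOX17 and at most 2 of PAX8. The 2 Ishikawa 0 h libraries differed from each other more than the replicates of any other time did in members (chi-square per member 10.1, against 2.17 to 6.66 in the other 7 pairs). The Ishikawa 4 h and 8 h libraries were not separated by label. The root mean square log2 difference over all genes was 0.391 within 4 h, 0.353 within 8 h and 0.329 to 0.378 between them. The order of 4 h and 8 h in this line is thus not resolved. In T-47D the same difference was 0.2975 within 4 h, 0.3324 within 8 h and 0.3295 to 0.345 between them. The T-47D 8 h replicates thus lay about as far apart as 4 h and 8 h libraries of that line did.

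Members moved in both directions after E2, and at 4 h and 8 h a smaller share of them than of the other genes over the floor was called in both lines (7.09% and 15.4% of members against 17.4% and 28.3% of others in Ishikawa, and 19.7% and 22.8% against 28.2% and 38.2% in T-47D). In Ishikawa at 2 h 4 members rose and 7 fell, which is 1.57% and 2.76% of the 254, while 2.61% and 1.74% of all 15787 genes tested rose and fell (edgeR adjusted p under 0.05). At 4 h 7 rose and 11 fell (2.76% and 4.33%), against 7.66% and 6.6% of all genes. At 8 h 16 rose and 23 fell (6.3% and 9.06%), against 12% and 10.1%. T-47D had 21 risen and 11 fallen members at 2 h (8.27% and 4.33%), where all 15594 genes gave 4.9% and 4.4%. At 4 h the counts were 29 and 21 (11.4% and 8.27%), against 11.1% and 10.4%, and at 8 h 24 and 34 (9.45% and 13.4%), against 15.4% and 14.3%. The median member hardly moved, with log2 fold changes of 0.03, -0.01 and 0.01 at 2, 4 and 8 h in Ishikawa and 0.03, 0.03 and -0.03 in T-47D. The counts depended on single libraries. The share of all genes called with a library left out is not given here, so whether members changed more than other genes is not shown. In Ishikawa without replicate 1 of 0 h more members were called in both directions at 2, 4 and 8 h. The members' median log2 fold changes were then 0.06, 0.01 and 0.04. Without replicate 2 of 0 h fewer were called in both directions, and the medians were 0.02, -0.03 and -0.01. Leaving out either 2 h library gave 0 up and 3 down at 2 h, and leaving out replicate 1 or 2 of 8 h gave 5 or 9 up and 12 or 11 down at 8 h. In T-47D the counts without replicate 2 of 0 h were 12, 15 and 14 up and 6, 11 and 18 down, without replicate 1 or 2 of 2 h 10 or 11 up at 2 h, without replicate 1 of 4 h 13 up and 9 down at 4 h, and without replicate 2 of 8 h 22 down at 8 h.

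**Figure D1:**
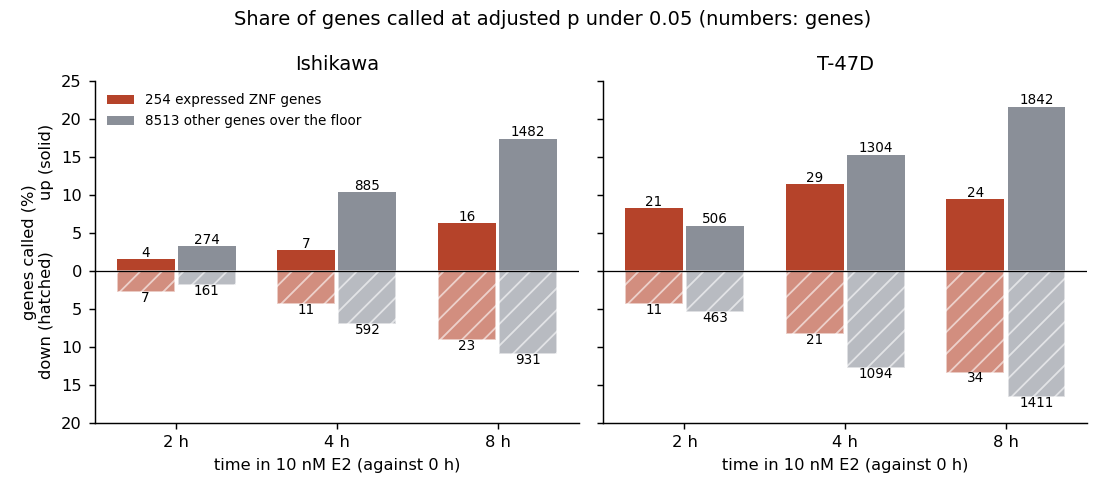
Percent of genes called at adjusted p under 0.05 against 0 h, up (solid, above the line) and down (hatched, below), for the 254 expressed ZNF genes and the 8513 other genes over the same floor in both lines, with the number of genes at each bar. Only the ZNF bars of T-47D at 2 h (up) and of Ishikawa at 2 h (down) are taller than the bars of the other genes.

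The members had lower levels than the other genes over the floor, with a median of 27.2 CPM in Ishikawa and 22.1 CPM in T-47D against 56.4 and 55.3 CPM, so shares are also given by level. Among genes of 10 to 20 CPM in Ishikawa, 5 of 86 members (5.81%) and 25.1% of the 1006 others were called at 8 h. Between 20 and 50 CPM the shares were 15.9% of 113 members and 25.9% of 2762 others. In T-47D at 8 h they were 13.0% of 108 members and 31.6% of 1168 others at the lower level, and 22.6% of 102 and 34.6% of 2731 at the next. From 50 to 100 CPM at 8 h they were 25% of 44 members and 31.6% of others in Ishikawa, and 38.7% of 31 and 39.4% in T-47D. Above 100 CPM the order was the other way, with 5 of 11 members (45.5%) and 29.3% of others in Ishikawa and 9 of 13 members (69.2%, 1 up and 8 down) and 44.5% of others in T-47D. At 2 h in T-47D the members' share was the larger in all 3 classes from 20 CPM on, with 14.7%, 22.6% and 30.8% of members and 10.3%, 12.3% and 13.4% of others, and the smaller below 20 CPM, with 5.56% and 8.22%. The shares are descriptions and were not tested against each other.

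Direction went with base composition. The members were poorer in GC than the other genes over the floor (median 43.7% of the canonical transcript against 47.6%), and those with a KRAB-like box had a median of 42.4%. In Ishikawa at 8 h 15 of the 16 risen members were under 45% GC, a class that holds 145 of the 254, and 18 of the 23 fallen ones were at 45% or more. In T-47D at 8 h 17 of 24 risen members were under 45% GC and 21 of 34 fallen ones at 45% or more, and at 2 h 15 of 21 and 7 of 11. The medians of the other genes over the floor also fell with GC. At 2 h in Ishikawa the median log2 fold change of members under 40% GC was 0.15 and of those at 60% or more -0.09, and the other genes gave 0.12 and -0.08. At 8 h in Ishikawa the members gave 0.15 and -0.13 and the others 0.19 and -0.10. At 8 h in T-47D the members gave 0.04 and -0.17 and the others 0.11 and -0.06. Between 40 and 45% GC, a bin of 85 members, the T-47D medians at 8 h were -0.05 for members and 0.06 for the others. The T-47D members at 8 h thus lay below other genes of like GC.

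**Figure D2:**
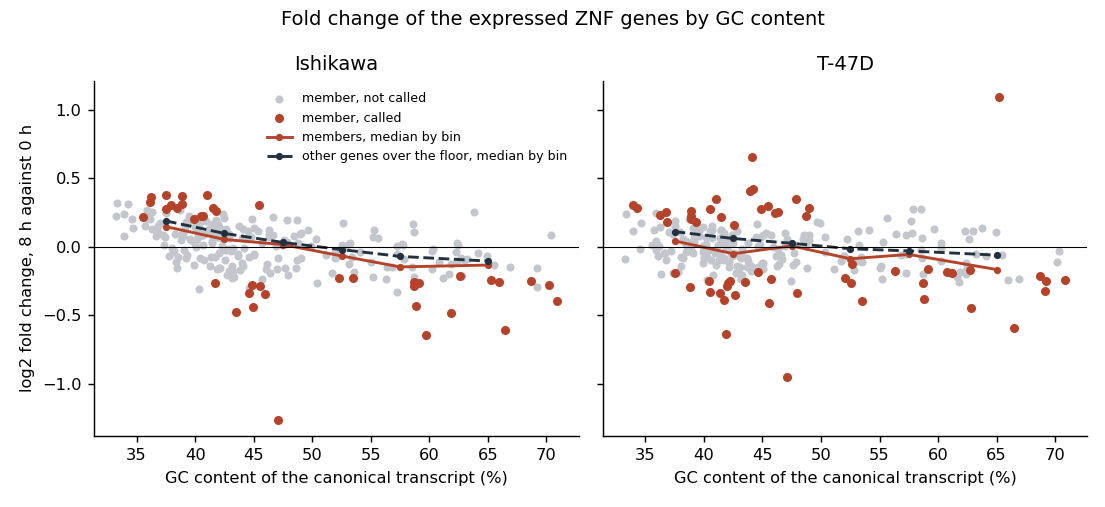
Log2 fold change at 8 h against 0 h (vertical axis) against the GC content of the canonical transcript (horizontal axis, percent) for each member, called members in red, with the medians by GC bin of the members (solid) and of the other genes over the floor (dashed). In Ishikawa both medians are above 0 below 45% GC and below 0 from 50% GC on. Of the 16 risen members there 15 lie below 45% GC. In T-47D the median of the members lies below that of the other genes in every bin.

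Replicates of 1 time point differed along the same axis. The log2 difference of replicate 2 from replicate 1 at Ishikawa 0 h rose by 0.13 for every 10 points of GC over all genes, and by 0.12 over the members alone, and at T-47D 8 h it fell by 0.09 and by 0.10. The other 6 pairs had slopes of -0.01 to 0.04 over all genes. In the Ishikawa 0 h libraries the members under 45% GC had median log2 levels of 0.07 and -0.07 around their own mean, while in the 2 h libraries they stood at 0.09 and 0.09. Replicate 1 of 0 h thus lay nearer to both 2 h libraries than to its own replicate in these members. In T-47D the 0 h libraries stood at 0.02 and -0.02, the 2 h libraries at 0.08 and 0.08, and the 8 h libraries at -0.06 and 0.04. The slope in the fold changes cannot be told apart from this difference between libraries.

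**Figure D3:**
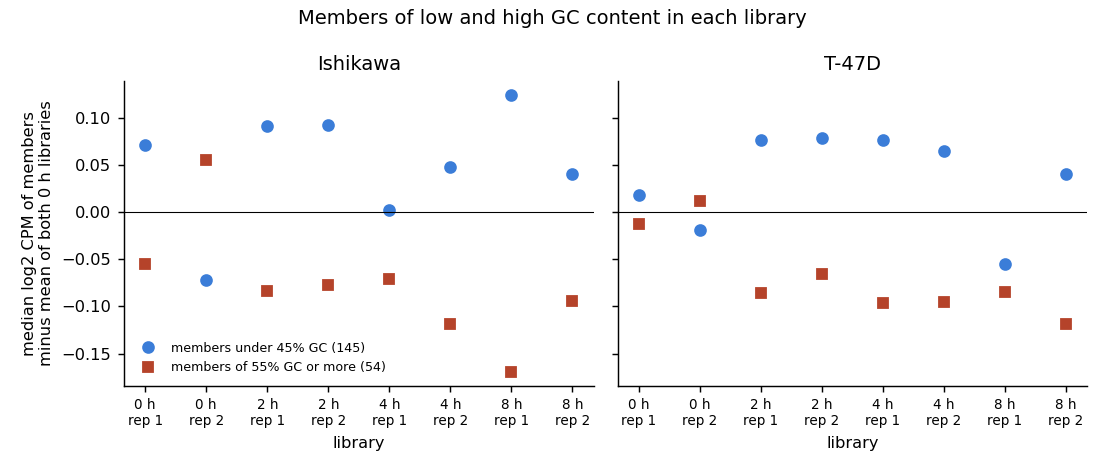
Median over members of log2 CPM in each library (horizontal axis) minus the mean of both 0 h libraries of the line, for members under 45% GC (circles) and of 55% GC or more (squares). The 2 Ishikawa 0 h libraries mirror each other at 0.07 and -0.07 for low GC, and in T-47D replicate 1 of 8 h is the only treated library below 0 for low GC.

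An offset that removes each library's smooth trend on GC, and with it any part of the E2 response that follows GC, changed which members were called. Of the 16 members risen at 8 h in Ishikawa 6 were also called with the offset, and 7 others were gained, and of the 23 fallen 14 were also called and 9 gained. In T-47D at 8 h 15 of 24 risen and 27 of 34 fallen members were also called, and 23 fallen members were gained, which made 50. At 2 h in T-47D 19 of 21 risen and 9 of 11 fallen members were shared. At 2 h in Ishikawa all 7 fallen and 1 of 4 risen members were. Some members were called at 8 h in both lines with every other test, filter, scaling, block and GC setting tried. These settings kept adjusted p under 0.05, the same CPM floor and all libraries. The members were ZNF146 and ZNF639 (up) and ZNF217, ZNF467, ZNF532, ZNF608 and ZNF821 (down). The T-47D call of ZNF146 and the Ishikawa call of ZNF821 did not hold in every fit with a library left out.

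Among the members that moved the same way in both lines the largest falls exceeded the largest rises. ZNF608, a paralogue of the transcriptional regulator ZNF609 on chromosome 5, had the largest fall at 8 h of any member called in each line. It stood at 30.5 and 29.5 CPM in the Ishikawa 0 h libraries, at 13.4 and 13.9 after 2 h, at 12.4 and 11.8 by 4 h and at 11.8 and 13.3 at 8 h. In T-47D it went from 21.9 and 24.7 CPM to 10.2 and 9.62 after 2 h, 12.8 and 13.7 by 4 h and 11.95 and 12.15 at 8 h. Every treated library lay below both 0 h libraries. The log2 fold changes were -1.14 ± 0.09 after 2 h and -1.26 ± 0.09 at 8 h in Ishikawa (SE, 2 libraries per group, edgeR adjusted p = 9.49e-07 and 2.76e-07), and -1.23 ± 0.09 and -0.95 ± 0.09 in T-47D (adjusted p = 2.72e-08 and 2.45e-07). Its paralogue ZNF609 had log2 fold changes of 0.01 in Ishikawa and -0.27 in T-47D at 8 h, the second of which passed the test (adjusted p = 0.000633).

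ZNF217, an oncogene of the 20q13 amplicon in breast cancer whose protein joins CtBP and CoREST repressor complexes, fell in both lines at 2 h and rose again in T-47D. Its CPM in Ishikawa were 43.96 and 41.69 at 0 h, 26.02 and 23.08 after 2 h, 31.6 and 28.8 by 4 h and 30.4 and 31.3 at 8 h. T-47D had the higher level, with 133 and 132 CPM before E2, 80.1 and 87.1 after 2 h, 107 and 108 by 4 h and 105 and 118 at 8 h. All treated libraries lay below the 0 h ones. The log2 fold change went from -0.80 ± 0.08 at 2 h to -0.47 ± 0.08 at 8 h in Ishikawa and from -0.67 ± 0.06 to -0.25 ± 0.06 in T-47D. The rise from 2 h to 8 h passed the test in T-47D (0.41 ± 0.06, edgeR adjusted p = 6.25e-05) and missed it in Ishikawa (0.33 ± 0.08, adjusted p = 0.0517), where it passed with the GC offset.

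ZNF467, a factor linked to the choice between fat and bone cells, fell at 2 h in both lines and fell further in T-47D. There it stood at 47.7 and 47.2 CPM before E2, 35.3 and 37.3 after 2 h, 32.3 and 33.3 by 4 h and 31.7 and 31.2 at 8 h, and in Ishikawa at 18.9 and 20.5, 14.5 and 14.0, 14.5 and 14.7, and 12.8 and 13.2. Its log2 fold change at 8 h was -0.60 in both lines (adjusted p = 0.000357 and 4.55e-07). ZNF532 and ZNF687, which with ZNF592 bind the chromatin reader ZMYND8, gave different values. ZNF532 fell at 8 h by 0.29 on the log2 scale in Ishikawa and by 0.41 in T-47D (adjusted p = 0.00289 and 2.97e-06) and ZNF687 by 0.26 and by 0.16 (adjusted p = 0.01 and 0.0151). ZNF592 had log2 fold changes of -0.04 and -0.06, neither of which passed. The ZNF687 calls were lost with the GC offset in both lines. ZNF821 fell by 0.43 and by 0.38 at 8 h (adjusted p = 0.0106 and 0.00124). It overlaps ATXN1L and IST1 on the opposite strand, with mean CPM of up to 134 and 157. The strand setting of the counting is not given, so reads of these genes may enter its counts.

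The rises shared by both lines were small. ZNF639, also called ZASC1, stood at 69.5 and 56.9 CPM before E2 in Ishikawa, 77.3 and 78.6 after 2 h and 84.7 and 79.7 at 8 h. The T-47D libraries held 63.9 and 54.3 CPM of it before E2, 73.3 and 72.9 after 2 h and 73.2 and 77.6 at 8 h. All treated libraries lay above both 0 h ones, and the log2 fold change at 8 h was 0.38 ± 0.08 in Ishikawa and 0.35 ± 0.06 in T-47D (adjusted p = 0.00349 and 0.000424). ZNF146, whose finger is shown above, was at 185 and 164 CPM before E2 and at 217 and 217 at 8 h in Ishikawa, and at 74.7 and 70.0 CPM and then 80.6 and 88.7 in T-47D. Its log2 fold changes at 8 h were 0.32 ± 0.06 and 0.23 ± 0.06 (adjusted p = 0.00219 and 0.00588), and 0.18 and 0.14 with the GC offset. ZNF669, ZNF770, ZNF131 and ZNF800 also rose at 8 h in both lines, by 0.23 to 0.37 on the log2 scale. The calls of ZNF131, ZNF770 and ZNF800 were lost with the GC offset in at least 1 line. The Ishikawa call of ZNF669 was kept with that offset and lost in at least 1 other setting with all libraries present.

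**Figure D4:**
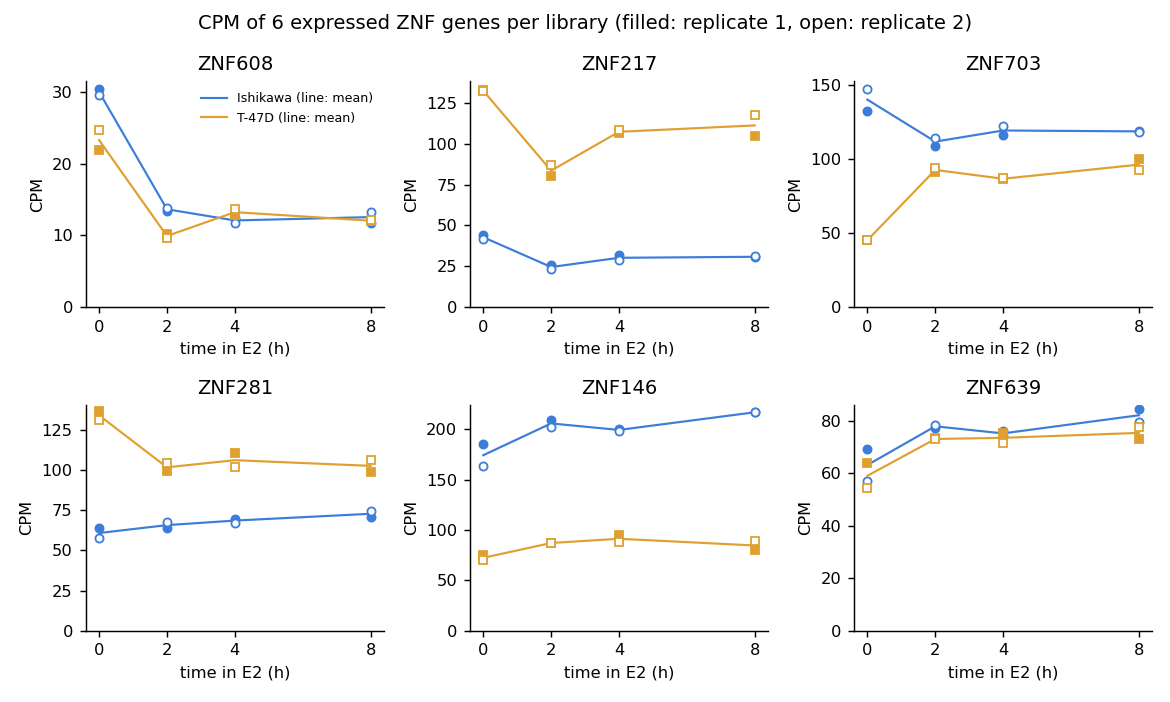
CPM (vertical axis, from 0) of 6 members by hours of E2, Ishikawa in blue circles and T-47D in orange squares, with replicate 1 filled, replicate 2 open and a line through the means. ZNF608 and ZNF217 fall by 2 h in both lines, ZNF703 rises in T-47D and not in Ishikawa, ZNF281 falls in T-47D and not in Ishikawa, and ZNF146 and ZNF639 rise a little in both.

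The 2 lines differed most at 8 h in ZNF703, a repressor of the NET family, an oncogene of luminal breast cancer, on chromosome 8. In T-47D it went from 45 and 45.3 CPM before E2 to 91.0 and 94.1 after 2 h, 86.3 and 86.9 by 4 h and 99.7 and 92.6 at 8 h. In Ishikawa it went from 133 and 147 CPM to 109 and 114 after 2 h, 116 and 122 by 4 h and 119 and 118 at 8 h. The T-47D treated libraries all lay far above the 0 h ones, while all Ishikawa treated libraries lay below both 0 h ones. The log2 fold change at 8 h was 1.09 ± 0.05 in T-47D and -0.24 ± 0.06 in Ishikawa (edgeR adjusted p = 3.32e-11 and 0.0132), and the difference was 1.33 ± 0.08 (adjusted p = 8.17e-10). The Ishikawa fall at 8 h was -0.09 with the GC offset (adjusted p = 0.18). ZNF703 has no finger by the codon pattern used.

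Over all members the test of the difference between the lines, fitted over all 16 libraries, called 5, 11 and 12 members at 2, 4 and 8 h, against 2.67%, 6.03% and 10% of all 17090 genes tested, and 18 distinct members at any time. Without replicate 1 of Ishikawa 0 h the test called 31 members at 8 h in place of 12, without either Ishikawa 2 h library 3 or 2 at 2 h, and without either T-47D 4 h library 5 at 4 h. With the GC offset it called 23 at 8 h. The share of all genes called in these refits is not given here. Differences from this joint fit can depart slightly from the gap between the values fitted in each line. ZNF281, a factor that binds GC-rich promoters, had the second smallest adjusted p at 8 h. It stood at 137 and 131 CPM before E2 in T-47D and between 99.0 and 110 in the 6 treated libraries, and at 64 and 57.7 CPM before E2 in Ishikawa and at 71.0 and 74.6 at 8 h. The 8 h log2 fold change was -0.39 ± 0.05 in T-47D and 0.26 ± 0.07 in Ishikawa, and the difference -0.65 ± 0.09 (adjusted p = 4.34e-05). ZNF148, which binds similar sites, had 0.02 in T-47D and 0.22 in Ishikawa, and that difference was not called (adjusted p = 0.228). ZNF148 was called in T-47D (-0.12) and not in Ishikawa (0.01) when the GC offset was used. ZNF24, a SCAN-domain factor, had -0.19 in T-47D and 0.27 in Ishikawa (difference -0.47 ± 0.10, adjusted p = 0.00333), of which the Ishikawa value was 0.11 and not called with the GC offset.

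ZNF587, a KRAB protein of the chromosome 19 group shown above, rose in T-47D from 33.8 and 39.0 CPM before E2 to between 43.4 and 48.2 in the 6 treated libraries. In Ishikawa it went from 35.97 and 39.88 CPM before E2 to 30.5 and 32.1 at 8 h. Its log2 fold changes at 8 h were 0.28 ± 0.07 and -0.28 ± 0.09, and the difference 0.55 ± 0.11 (adjusted p = 0.00215). The Ishikawa call was lost without replicate 2 of 0 h (-0.20, adjusted p = 0.23) and without either 2 h or either 8 h library. ZNF417, which shares more of its sequence with ZNF587 than with any other gene, had -0.14 in both lines. The finger relatives ZNF552, ZNF587B and ZNF814 rose in T-47D at 8 h by 0.24, 0.42 and 0.41 on the log2 scale (adjusted p = 0.00111, 0.00344 and 0.00505), and their Ishikawa values of -0.16, 0.06 and -0.12 did not pass. The difference between the lines was called for ZNF552 (0.40 ± 0.12, adjusted p = 0.0361) and not for ZNF587B or ZNF814 (0.36 and 0.52, adjusted p = 0.139 and 0.0577). ZNF552, ZNF587B and ZNF814 share sequence with one another, so their values may not be independent. Each is still counted separately in the totals. ZNF587 shared most of its shared words with ZNF417, and it overlaps ZNF814 on the opposite strand.

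ZNF692 fell in Ishikawa by 0.64 ± 0.14 on the log2 scale at 8 h (adjusted p = 0.00536), from 0 h libraries that disagreed, 26.6 and 40.7 CPM, to 21.4 and 21.8. T-47D gave 0.13, which passed only with the GC offset (0.20), and the difference was 0.77 ± 0.18 (adjusted p = 0.00891). ZNF616, a KRAB gene of chromosome 19, had -0.33 in T-47D (adjusted p = 0.00283) and 0.22 in Ishikawa (adjusted p = 0.0962), and its difference passed (-0.56 ± 0.12, adjusted p = 0.00452). ZNF704 went from 200 and 200 CPM in T-47D to 126 and 132 at 8 h (-0.63 ± 0.04, adjusted p = 6.15e-09), while its log2 fold change in Ishikawa was -0.16 (difference adjusted p = 0.000455). ZNF704 with the offset was also called down in Ishikawa, at 4 h (-0.27, adjusted p = 0.00742) and at 8 h (-0.24, adjusted p = 0.0121). Its relative ZNF395 fell in T-47D by 0.40 (adjusted p = 1.12e-05) and had -0.19 in Ishikawa (adjusted p = 0.117), and that difference did not pass (adjusted p = 0.209). ZNF367 rose in T-47D step by step, from 17.5 and 16.4 CPM before E2 through 18.8 and 18.8 and 21.7 and 22.4 to 25.4 and 28.2 at 8 h (0.66 ± 0.08, adjusted p = 4.95e-06), and had 0.13 in Ishikawa (difference adjusted p = 0.00622). At 8 h 6 members rose in both lines, 10 fell in both, 4 went opposite ways, 19 were called in Ishikawa and not in T-47D and 38 in T-47D and not in Ishikawa. These are 2.36%, 3.94%, 1.57%, 7.48% and 15% of the members, and the same classes held 8.29%, 5.19%, 1.77%, 13.1% and 23% of the 8513 other genes over the floor.

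**Figure D5:**
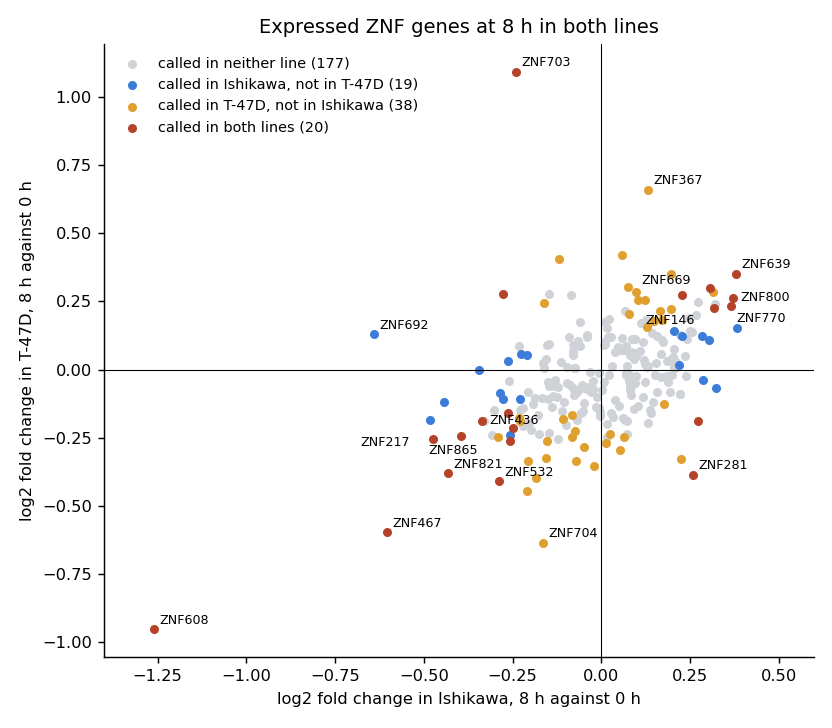
Log2 fold change at 8 h against 0 h in Ishikawa (horizontal axis) and T-47D (vertical axis) for the 254 members, coloured by the line in which they were called. ZNF608 and ZNF467 lie lower left in both, ZNF703 stands alone at the top, and 177 members were called in neither line.

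By the time of the first call, members called at 2 h are termed Early and members first called at 4 h or 8 h Late. In Ishikawa the Early Up members were 4 (ZNF146, ZNF614, ZNF639 and ZNF107) and the Early Down members 7 (ZNF436, ZNF516, ZNF217, ZNF608, ZNF467, ZNF703 and ZNF250), while 17 were Late Down and 16 Late Up. In T-47D 21 members were Early Up, 11 were Early Down, 16 were Late Up and 25 were Late Down. Taken as Early before Late and up before down, the classes held 1.57%, 2.76%, 6.3% and 6.69% of the members in Ishikawa and 3.22%, 1.89%, 15.7% and 9.73% of the other genes over the floor. In T-47D they held 8.27%, 4.33%, 6.3% and 9.84% of the members and 5.94%, 5.44%, 18.4% and 13.8% of the others. Without replicate 2 of 0 h the Late Up and Late Down members numbered 5 and 6 in Ishikawa and 10 and 14 in T-47D, and without replicate 1 or 2 of 8 h 7 or 9 and 12 or 8 in Ishikawa. Without replicate 1 of 4 h the Late Up members of T-47D numbered 10. With the GC offset T-47D had 42 Late Down members. The median 2 h log2 fold change of the Late Up members was 0.17 in each line, and that of the Late Down members -0.16 in Ishikawa and -0.08 in T-47D.

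In Ishikawa no member was called between 2 h and 8 h by edgeR (1.06% of all genes rose and 1.17% fell). At an unadjusted p under 0.05 9 members rose and 16 fell, DESeq2 called 2, and edgeR with the GC offset called 2, ZNF217 and ZNF516, both up. ZNF516, a regulator of brown fat genes, was an Early Down member back near its start: 48.5 and 51.1 CPM before E2, 38.8 and 39.7 after 2 h, 47.8 and 48.4 by 4 h and 44.2 and 50.5 at 8 h. Its change from 2 h to 8 h was 0.27 and did not pass without that offset (adjusted p = 0.0753). ZNF436, a KRAB member, fell to 34.9 and 34.7 CPM at 2 h from 52.0 and 43.3 in Ishikawa (-0.45 ± 0.08, adjusted p = 0.00396) and had 0.03 in T-47D, where it fell at 8 h by 0.19 (adjusted p = 0.0387).

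In T-47D 8 members rose and 14 fell between 2 h and 8 h, 3.15% and 5.51% of the members, against 9.53% and 7.23% of all genes. The members' median log2 change from 2 h to 8 h was -0.08, and 31% of them had a positive value. All genes tested gave 0.004 and 51%, and the other genes over the floor 0.02 and 57%. With the GC offset the counts were 12 and 32, all 22 of the first calls among them, and the members' median stayed at -0.08. Early Down members went both ways. ZNF217, ZNF608 and ZNF362 came part of the way back, by 0.41, 0.28 and 0.25 on the log2 scale, while ZNF704, ZNF467 and ZNF532 fell further, by 0.39, 0.21 and 0.19. ZNF385A, a p53 cofactor, did not pass at 2 h (it did with the GC offset), at 189 and 199 CPM against 185 and 196 at 0 h, and stood at 144 and 136 at 8 h (-0.44 ± 0.05 against 0 h, adjusted p = 1.23e-06). ZNF827, which recruits the NuRD complex to telomeres, had 0.00 after 2 h and -0.34 at 8 h (adjusted p = 0.00461). ZNF598, a ubiquitin ligase that acts on collided ribosomes, rose from 2 h to 8 h by 0.22 (adjusted p = 0.0181), though neither time differed from 0 h past the threshold (with the GC offset 8 h did, by 0.19). ZNF202, a SCAN-domain repressor of lipid genes, was among the largest risers at 2 h (0.44 ± 0.07, adjusted p = 0.000267), and stood at 0.28 at 8 h. Of the 21 Early Up members 0 were called between 2 h and 8 h without the GC offset, and ZNF28 and ZNF480 were called down with it. Their median log2 fold change was 0.32 at 2 h and 0.23 at 8 h. At 8 h 17 of the 21 stood nearer to 0 h than at 2 h, and 15 were still called. They were chosen by their 2 h call. Without replicate 1 or replicate 2 of 2 h 8 members were called between 2 h and 8 h in place of 22, and without replicate 1 of 8 h 14.

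Of the 120 members with a KRAB-like box 11 rose and 0 fell at 2 h in T-47D by edgeR (3 fell at an unadjusted p under 0.05, 0 by DESeq2 and 1 with the GC offset), 9.17% and 0% of the class beside 4.9% and 4.4% of all genes. Among the risen ones ZNF480 had a log2 fold change of 0.32, ZNF552 of 0.33 and ZNF587 of 0.38. The 130 members without the box had 10 risen and 11 fallen. As given above, fewer members rose at 2 h in T-47D without either 2 h library, and class counts in those fits are not given. In Ishikawa at 2 h 1 KRAB member rose and 2 fell, 2.5% of the class beside 4.3% of all genes. Of the others 3 rose and 5 fell there. At 8 h in T-47D the KRAB class had 9 risen and 8 fallen, and 9 and 18 with the GC offset, and the other class 15 and 26. In Ishikawa at 8 h 5 KRAB members rose and 6 fell, and 11 and 17 of the others. The share of the class called was thus 9.17% and 14.2% at 8 h in Ishikawa and T-47D for KRAB members and 21.5% and 31.5% for the others, beside 22.1% and 29.7% of all genes tested. GC content and level differ between the classes too, and their part in these shares was not tested. On chromosome 19 3 of 95 members rose and 6 fell at 8 h in Ishikawa, and 9 and 11 in T-47D, in all 9.47% and 21.1% of them, beside the same 22.1% and 29.7% of all genes. Of the 159 members on other chromosomes 18.9% and 23.9% were called.

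Of the proteins with which KRAB factors silence, 17 were listed. In T-47D 6 of them rose and 3 fell at 8 h, where 15.4% of all genes rose and 14.3% fell, and 4 rose and 3 fell with the GC offset. UHRF1 and DNMT1, which copy DNA methylation after replication, rose by 0.60 and 0.30 on the log2 scale in T-47D (adjusted p = 1.28e-07 and 4.55e-05), and their differences from Ishikawa passed (0.44 and 0.38, adjusted p = 0.000527 and 0.00141). TRIM28, the corepressor itself, rose by 0.21 in T-47D (adjusted p = 0.00117), CBX3 by 0.26, SMARCAD1 by 0.23 and HDAC2 by 0.15. The nucleosome remodelers CHD3 and CHD4 fell by 0.29 and 0.21 there, and HDAC1 by 0.14. SETDB1 had log2 fold changes of -0.16 in Ishikawa and -0.03 in T-47D, neither called. In Ishikawa at 8 h, where 12% of all genes rose, HDAC2 and SMARCAD1 rose by 0.23 and 0.24 and CHD3 fell by 0.30. At 2 h in Ishikawa edgeR and DESeq2 called 0 of the 17, with 2 up and 2 down at an unadjusted p under 0.05 and 1 up and 1 down called with the GC offset. ATF7IP, the partner of SETDB1, fell at 2 h in T-47D by 0.33 (adjusted p = 0.000428) and stood at -0.02 at 8 h.

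Other C2H2 families over the same floor had 26 ZBTB, 12 ZSCAN or ZKSCAN, 11 ZFP and 9 KLF or SP genes. At 8 h ZBTB genes had 8 risen and 2 fallen in Ishikawa and 6 and 4 in T-47D, 38.5% of them in each line, beside 22.1% and 29.7% of all genes. Of the SCAN genes, which are close kin of the ZNF genes, 1 was called in Ishikawa and 3 in T-47D, all down. Of the ZFP genes 1 was called in each line, and of the KLF and SP genes 2 in Ishikawa and 4 in T-47D.

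Of the 4 most abundant members ZNF146 rose in both lines, as given above. ZNF664 was the highest, at 289 to 340 CPM in Ishikawa and 394 to 432 CPM in T-47D, and had log2 fold changes at 8 h of 0.15 and 0.02, neither called. ZNF207, which loads BUB3 on kinetochores, rose in T-47D at 8 h by 0.18 (adjusted p = 0.00237) and had 0.15 in Ishikawa (adjusted p = 0.0853), and the T-47D call was lost with the GC offset. ZNF106 had 0.06 and 0.07 at 8 h and ZNF638, an RNA-binding protein linked to retroviral silencing, 0.05 and 0.08, and none of these passed. ZNF143, which binds promoters and loop anchors, had 0.17 and 0.06, and ZNF263 0.12 and 0.04, of which the Ishikawa value of ZNF263 passed with the GC offset (0.21). ZNF384 fell in Ishikawa by 0.23 at 8 h (adjusted p = 0.0147), where it stood at 155 and 173 CPM before E2 and 137 and 143 at 8 h. ZNF292 had 0.12 and -0.10, the second of which passed with the GC offset (-0.22). ZNF622 and ZNF593, which mature the large ribosomal subunit, were called at 1 time in 1 line each: ZNF622 in T-47D at 4 h (0.20, adjusted p = 0.0374) and ZNF593 in Ishikawa at 4 h (0.34, adjusted p = 0.0352). Under the GC offset ZNF622 was called at 2 h too (0.26, adjusted p = 0.00776) and ZNF593 at 8 h too (0.40, adjusted p = 0.00577).

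Promoters of 217 members were found in RefSeq (GRCh38.p14), as 250 bases before to 50 after the start, with 47 members having more than 1. The full palindromic estrogen response element, GGTCANNNTGACC on either strand, was present in 1 of them (0.461%), ZNF669. It was also in 1 of the 6689 other genes over the floor (0.0150%) and in 20 of all 27305 genes of the table (0.0733%). The single arm AGGTCA was in 12.9% of the members' promoters and 13.0% of the others'. The GC box GGGCGG was in 67.7% and 80.6%, and the ETS site CCGGAAG in 44.2% and 24.9%. ZNF669 rose in T-47D from 10.7 and 10.4 CPM before E2 to 14.1 and 12.4 after 2 h and 13.3 and 12.6 at 8 h, and in Ishikawa from 19.7 and 17.2 CPM to 23.2 and 22.4 at 8 h. Its log2 fold changes at 8 h were 0.31 ± 0.09 in Ishikawa and 0.30 ± 0.10 in T-47D (adjusted p = 0.0296 and 0.0255). As given above, the Ishikawa call did not hold in every setting. Its promoter is printed because it holds the element, in capitals, 174 bases before the start, and that of ZNF608 because this gene fell the most and holds none of the full elements in this window. Both runs are the 250 bases before the start, written along the gene's strand.
ZNF669, chr1:247104357-247104606, minus strand: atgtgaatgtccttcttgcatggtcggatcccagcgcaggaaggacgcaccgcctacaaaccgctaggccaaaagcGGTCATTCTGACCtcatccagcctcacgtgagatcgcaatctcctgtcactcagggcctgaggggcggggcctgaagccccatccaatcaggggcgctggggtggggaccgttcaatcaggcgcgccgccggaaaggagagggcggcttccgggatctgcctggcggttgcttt
ZNF608, chr5:124748825-124749074, minus strand: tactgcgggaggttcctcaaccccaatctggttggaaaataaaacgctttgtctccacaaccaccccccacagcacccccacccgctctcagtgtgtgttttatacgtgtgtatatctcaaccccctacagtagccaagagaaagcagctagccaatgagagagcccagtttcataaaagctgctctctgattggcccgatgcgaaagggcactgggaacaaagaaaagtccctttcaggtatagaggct
A match of letters is a description and not a bound site.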

How the data were processed

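Poly(A) RNA of 16 libraries was sequenced by the authors, aligned to hg19 with HISAT2, handled with SAMtools and counted with featureCounts on UCSC Known Genes. Versions, the strand setting and the treatment of multi-mapped reads are not given in the sources used here. The deposited values are raw read counts per gene, 1 table per line and no normalization. The authors' methods state that the lines were not authenticated.

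From these counts, genes were kept with filterByExpr, scaled with TMM and tested with edgeR 4.0.16 (R 4.3.3, limma 3.58.1), quasi-likelihood F-test, time as a factor with 4 levels over the 8 libraries of a line, no block, Benjamini-Hochberg adjustment over all genes tested and adjusted p under 0.05. The line difference was the interaction over 16 libraries. CPM of members in single libraries were scaled on the TMM-adjusted totals of the genes kept. The mean CPM of the selection and the GATA3 range were scaled on plain library totals. The GC offset was a lowess (span 0.2) of log2 CPM on transcript GC in each library. DESeq2 1.42.0 was an alternative, as were RLE scaling, other filters and floors, adjusted p under 0.01, the replicate block, only the time points compared, 4 h and 8 h as 1 group, and each library left out. The edgeR step was tested on simulated data.

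Annotation came from GENCODE v44lift37 and promoters from RefSeq GRCh38.p14. Shared sequence was counted in 50-base words. Members and lists were chosen with earlier results of these data known. Genes were named by rule: the largest changes at 8 h and 2 h with treated replicates beyond both 0 h ones, the largest line differences, the largest changes called in both lines, the 4 most abundant, those next to the floor, textbook roles, the corepressor list and GREB1. The others were chosen after their values were seen, among them ZNF609, ZNF592, ZNF687, ZNF417, ZNF552, ZNF814, ZNF395, ZNF516, ZNF436, ZNF385A, ZNF827 and ZNF362. Samples were grouped by their titles, and 0 per-sample columns were left unused.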

Additional observations from a re-analysis of the deposited data

Results flagged for a closer look

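The members below responded differently in T-47D and Ishikawa by the edgeR interaction test over 16 libraries (adjusted p under 0.05). Values are log2 differences of the response, T-47D minus Ishikawa. At 2 h they were ZNF703 (1.378), ZNF436 (0.502), ZNF552 (0.498), ZNF587 (0.483) and ZNF281 (-0.495).

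At 4 h, where 6.03% of all genes passed, the response was higher in T-47D for ZNF703 (1.185), ZNF587 (0.592), ZNF587B (0.557), ZNF608 (0.51), ZNF436 (0.478), ZNF367 (0.458), ZNF83 (0.45), ZNF248 (0.412) and ZNF318 (0.27). It was lower in T-47D for ZNF281 (-0.497) and ZNF704 (-0.442). ZNF608 fell in both lines, and the difference is one of size.

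At 8 h, where 10% of all genes passed, it was higher in T-47D for ZNF703 (1.328), ZNF692 (0.766), ZNF587 (0.55), ZNF367 (0.525) and ZNF552 (0.398). It was lower for ZNF281 (-0.647), ZNF616 (-0.557), ZNF704 (-0.472), ZNF24 (-0.465), ZNF185 (-0.306), ZNF609 (-0.282) and ZNF271P (-0.266). ZNF552 and ZNF587B share sequence with each other, while ZNF587 shared most of its shared words with ZNF417. Whether reads from shared stretches were counted is not given in the sources used here. The 0 h libraries of Ishikawa enter every one of these values, and without their replicate 1 31 members passed at 8 h.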

How the results depend on the processing

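The 2 libraries per time point limit all calls. The counts below are of members, with no share of all genes called in the same fit beside them. The cause of the changes listed here was not tested, except where fewer libraries, fewer members or a stricter threshold enter by construction.

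With adjusted p under 0.01, Ishikawa had 0 up at 2 h, 0 up and 5 down at 4 h, 4 up and 8 down at 8 h, 5 Late Down and 4 Late Up. In T-47D 12 rose and 7 fell (2 h), 17 and 11 (4 h) and 15 and 18 (8 h), with 14 Late Down and 10 between 2 h and 8 h, and the line difference called 2 and 4 members at 2 h and 4 h. With a floor of 20 CPM, Ishikawa had 4, 6 and 15 down at 2, 4 and 8 h, the last with a median of 0.0498. T-47D had 19 down at 8 h, 9 Late Up, 13 Late Down and medians of 0.0545 at 4 h and 0.0058 at 8 h. With no filter, Ishikawa had 13 up at 2 h, 19 down at 4 h and 6 between 2 h and 8 h. With only the time points compared, Ishikawa had 2, 1 and 10 up at 2, 4 and 8 h, 10 Late Up, 11 Late Down and 3 between 2 h and 8 h, and the line difference 4 at 4 h. With 4 h and 8 h as 1 group 21 rose and 29 fell in Ishikawa. DESeq2 gave 8 up at 2 h and 2 between 2 h and 8 h in Ishikawa, and 20 line differences at 8 h. RLE scaling gave 1 between 2 h and 8 h in Ishikawa.

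With the GC offset, Ishikawa medians were 0.0014 at 2 h and -0.0232 at 8 h, with 2 members between 2 h and 8 h. The T-47D median at 4 h was -0.0087, with 42 Late Down and 44 between 2 h and 8 h, and the line difference was called for 23 at 8 h. With the GC offset and the replicate block, Ishikawa had 2 up at 2 h, medians of 0.0015 and -0.0237 at 2 h and 8 h and 1 member between 2 h and 8 h. T-47D had a median of -0.0083 at 4 h, 54 down at 8 h, 45 Late Down and 51 between 2 h and 8 h, and the line difference 25 at 8 h. CBX3 in T-47D at 4 h turned to -0.007 with both.

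Replicate numbers did not pair the libraries: deviations of same-numbered libraries correlated at -0.115 to 0.06 over all genes and at -0.327 to 0.378 over the members. The replicate block alone moved no count by over 1.5 times (for T-47D at 8 h, 20 up and 33 down). It ended 6 of 130 calls of named genes.

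Leaving out 1 library gave, for Ishikawa, 0 to 32 up, 3 to 10 down and a median of 0.0191 to 0.0621 at 2 h, 0 to 22 up, 5 to 20 down and a median of -0.0326 to 0.0123 at 4 h, and 4 to 40 up, 8 to 27 down and a median of -0.0074 to 0.0434 at 8 h. Late Up ran from 5 to 15, Late Down from 6 to 20, and between 2 h and 8 h from 0 to 3. For T-47D it gave 10 to 29 up, 6 to 11 down and a median of 0.0305 to 0.0472 at 2 h, 13 to 38 up, 9 to 21 down and a median of 0.0206 to 0.0369 at 4 h, and 14 to 26 up, 18 to 31 down and a median of -0.0487 to 0.0005 at 8 h. Late Up ran from 10 to 20, Late Down from 14 to 25, and between 2 h and 8 h from 8 to 29. The line difference ran from 2 to 7 members (2 h), from 5 to 11 (4 h) and from 9 to 31 (8 h). Of the 130 calls of named genes 21 were lost and 1 (CBX3) turned with the GC offset, 39 were lost at adjusted p under 0.01, 19 with only the time points compared, 1 with DESeq2 and none with RLE scaling or no filter, and without replicate 2 of Ishikawa 0 h 29 were lost.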
